A study of Homo sapiens with 6 samples.

Results

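Small nucleolar RNA (snoRNA) host genes are long transcripts whose introns carry snoRNAs. The 9 non-coding host genes GAS5, SNHG1, SNHG5, SNHG6, SNHG7, SNHG8, SNHG12, SNHG15 and ZFAS1 were examined in A375 cells, a human melanoma line with an activated BRAF kinase. A member was read from array probe sets annotated with its symbol alone, and the probe set with the highest mean stood for the gene. By this rule 2 of the 9 members were found, GAS5 with 1 probe set and ZFAS1 with 4, of 19775 genes with such a probe set. The other 7 members were represented by probe sets that also list the snoRNAs inside the gene. There were 14 of these shared probe sets, 4 of them for GAS5, and the 26 genes they list beside the members were all snoRNAs lying within the member in RefSeq's GRCh38.p14 annotation. They are given by probe set and never as the value of 1 gene.

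All groups were A375 cells in which EIF4B had been knocked out by CRISPR and a gene then introduced by a lentivirus. KO/LacZ cells received LacZ and are called the knockout line or knockout cells, and KO/eIF4B cells received wild-type eIF4B and are called the rescued line or rescued cells. Each line was given 10 µM vemurafenib, an inhibitor of mutant BRAF, for 6 h or 18 h, or its vehicle, DMSO. Each of the 6 combinations was measured on 1 array. No unedited A375 cells were analysed here, and the labels do not say whether the knockout came from a single clone, how long the vehicle was applied, or whether arrays came from separate cultures. With 1 array per combination, the p-values therefore rest on how far the lines disagree in their response to treatment. A real difference between the lines in that response counts as error. The p-values do not measure the spread between separate cultures, and the number of arrays limits the precision.

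After splicing, the introns of a host gene are trimmed to snoRNAs, which guide chemical modification of ribosomal RNA and other RNAs. Several hosts begin with a terminal oligopyrimidine (TOP) tract, a C followed by a run of pyrimidines, which is the mark of the mRNAs for ribosomal proteins and is read in growth control through mTOR and LARP1. The spliced host transcripts often carry short reading frames, and some, with GAS5 the best known, are degraded when ribosomes translate them. Blocking translation is known to raise such transcripts. eIF4B, the factor removed here, stimulates the helicase eIF4A, which unwinds mRNA leaders for initiation.

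The annotated starts of 7 members are printed because TOP-like transcripts are named for how they begin. None is printed for SNHG6 or SNHG15. Each line gives 20 bases before the RefSeq start and 20 from it, 5′ to 3′ on the gene's strand, in GRCh38.p14, and capitals mark the unbroken run of C and T that begins with a C at the annotated start.
SNHG12 (chr1:28581854-28581893, minus strand): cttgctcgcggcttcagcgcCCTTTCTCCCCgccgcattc
ZFAS1 (chr20:49278622-49278661, plus strand): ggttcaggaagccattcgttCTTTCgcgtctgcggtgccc
SNHG5 (chr6:85678714-85678753, minus strand): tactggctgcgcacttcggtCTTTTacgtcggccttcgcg
SNHG7 (chr9:136728165-136728204, minus strand): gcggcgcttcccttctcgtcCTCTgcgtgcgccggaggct
SNHG1 (chr11:62855866-62855905, minus strand): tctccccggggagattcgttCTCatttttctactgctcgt
SNHG8 (chr4:118278742-118278781, plus strand): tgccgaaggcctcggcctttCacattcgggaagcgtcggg
GAS5 (chr1:173869026-173869065, minus strand): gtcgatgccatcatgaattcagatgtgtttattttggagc

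The run was 11 bases in SNHG12, 5 in ZFAS1 and SNHG5, 4 in SNHG7, 3 in SNHG1 and 1 in SNHG8, while the annotated start of GAS5 was an A. Of these 7 printed starts, only those of SNHG12, ZFAS1 and SNHG5 thus had a run of at least 5, the length taken here as TOP-like. Of 27305 RefSeq promoters, 15% started with a C, 4.04% had a run of at least 5 and 0.542% a run of at least 11. On the other strand 2.04% of promoters had a run of at least 5. Only 1 RefSeq start per gene was read, and any other start of a gene, GAS5 included, was not examined. The start used in these cells can lie elsewhere. A short run, or none, thus says only what letters stand at the printed position, not whether the gene has a TOP-like transcript. CACGTG, the palindromic E-box bound by MYC and related factors, stood in the 300-base window of SNHG7 alone among these 7, against 7.43% of all promoters.

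Across the series, EIF4B levels were 8.40 to 8.53 in knockout cells and 10.07 to 10.28 in rescued cells, in log2 units of the deposited RMA intensity, a scale on which 1 unit is a 2-fold difference. The difference was -1.68 (SE 0.05, adjusted p = 0.0056), and its adjusted p was 0.064 to 0.080 without any 1 of the 4 vemurafenib arrays. All 5 ERK output genes checked fell at both times, with DUSP6, an ERK phosphatase, at -5.31 (adjusted p = 8.1e-05) at 18 h. The melanoma markers SOX10 (9.86 to 10.57), MITF (8.10 to 9.97) and S100B (7.42 to 8.44) were well above the array median, near 5.2, while PMEL, TYR and MLANA lay between 4.76 and 5.81. Of the 5 melanoma markers tested MITF alone was called at 18 h, with a rise of 1.63 (adjusted p = 0.00035). Their summed linear intensity, MLANA included, was 2146.5 with vehicle, 1903 at 6 h and 2913 at 18 h in knockout cells. In rescued cells it was 2276, 1969 and 2628. Of 6 epithelial markers EPCAM and CDH1 stayed between 2.32 and 3.24 and KRT19 between 3.94 and 4.38, but the keratins KRT18 (11.70 to 12.75), KRT14 (8.85 to 10.80) and KRT8 (7.94 to 8.94) were bright. At 18 h KRT14 rose by 1.45 and KRT8 by 0.39, and KRT18 fell by 0.78 on the log2 scale (adjusted p = 0.00056, 0.0088 and 0.00070), the KRT8 call being lost without either vehicle array. The summed linear intensity of the epithelial markers was 7889.9 with vehicle, 6729 at 6 h and 6200.2 at 18 h in knockout cells, and 6311, 5408 and 4899 in rescued cells. Of 6 blood markers 4 had a probe set, with PTPRC at 2.92 to 3.17, CD3E, HBB and LYZ between 5.68 and 7.15, and a sum of 234 to 264 in knockout cells and 245 to 309 in rescued cells. LYZ fell by 0.86 (adjusted p = 0.0013) on the log2 scale at 18 h. Of 6 fibroblast markers 5 were tested, and 4 of them rose at 18 h. The fibroblast markers' summed linear intensity was 520.5 with vehicle, 722 at 6 h and 1355 at 18 h in knockout cells, and 642, 815 and 1690.3 in rescued cells, and COL1A2 lay between 4.52 and 4.94 log2 units throughout. The part of these markers in the results below was not tested. In such bulk samples fewer cells of a type and less RNA per cell cannot be told apart.

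GAS5, named for its accumulation in growth-arrested cells and host to a row of C/D-box snoRNAs, rose with vemurafenib at both times. Its single-symbol probe set, 1560402_at, read 6.46, 6.82 and 7.05 log2 units in knockout cells with vehicle, at 6 h and at 18 h, and 6.27, 6.61 and 6.70 in rescued cells. Both lines climbed in the same order, and no vehicle array reached the lowest treated array. How often all probe sets separate in this way was not counted, here or for the probe sets below. The difference from vehicle was 0.35 log2 units (SE 0.07, adjusted p = 0.031) at 6 h and 0.51 (SE 0.07, adjusted p = 0.0028) at 18 h, a 1.42-fold difference. These values came from limma with line and treatment as additive terms on all 6 arrays, adjusted over 13506 genes, and a gene was called at an adjusted p under 0.05. From 6 h to 18 h the difference was 0.16 (SE 0.07, adjusted p = 0.13). The call at 6 h was lost without either vehicle array or either 6 h array, where the adjusted p for GAS5 ran from 0.114 to 0.233, whereas the call at 18 h was kept without any 1 array (adjusted p at most 0.032).

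ZFAS1, transcribed head to head with ZNFX1 and host to C/D-box snoRNAs, rose by 18 h. On 226227_x_at, the brightest of its probe sets, the levels were 12.50, 12.69 and 12.98 in knockout cells with vehicle, at 6 h and at 18 h, and 12.49, 12.65 and 12.95 in rescued cells. The lines lay within 0.036 log2 units of each other at every treatment. The 18 h value exceeded vehicle by 0.47 (SE 0.06, adjusted p = 0.0022) and the 6 h value by 0.29 (SE 0.06, adjusted p = 0.018). At 6 h the difference from vehicle was 0.18 (SE 0.06, adjusted p = 0.10) and was not called. The call of 18 h against 6 h was lost on leaving out any 1 array other than the rescued 18 h array, with an adjusted p for ZFAS1 between 0.052 and 0.10.

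The count over the rule's members was thus 1 of 2 higher at 6 h and 2 of 2 higher at 18 h. Among all 13506 genes tested, 16.2% were called at 6 h (7.34% higher and 8.82% lower) and 51.4% at 18 h (28.1% higher and 23.3% lower). Between 6 h and 18 h 1 of 2 members was called higher, against 34% of all genes, 19% higher and 14.9% lower. The comparisons of 6 h and of 18 h with vehicle share the vehicle arrays and are not independent of each other.

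The probe sets of ZFAS1 did not all behave alike. On 224915_x_at and 226835_s_at the 18 h difference from vehicle was 0.49 (SE 0.06, adjusted p = 0.0024) and 0.55 (SE 0.06, adjusted p = 0.0018), in a fit over all 29345 probe sets. The dimmer 229899_s_at read 7.34, 7.37 and 7.11 in knockout cells and 6.97, 6.998 and 7.23 in rescued cells, and its mean difference at 18 h was 0.012 (SE 0.14, adjusted p = 0.95). The suffixes _x_at and _s_at mark probe sets that may bind more than 1 transcript, so the bright values may include other transcripts.

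**Figure D1:**
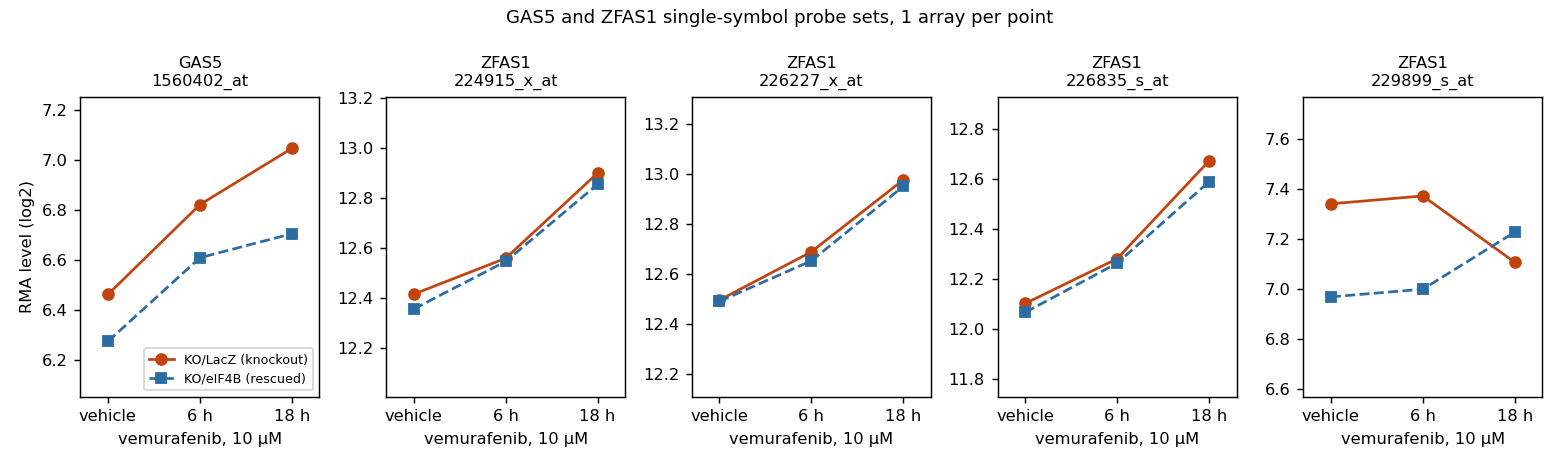
RMA levels (log2) of the 5 single-symbol probe sets of GAS5 and ZFAS1, with vehicle and after 6 h and 18 h of 10 µM vemurafenib; each point is 1 array, circles with solid lines are the knockout line and squares with dashed lines the rescued line. Each panel spans the same height on its own axis; GAS5 and 3 ZFAS1 probe sets climb in both lines, while 229899_s_at ends at 7.11 in knockout cells and 7.23 in rescued cells.

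The shared probe sets add the other members, with the limit that host and snoRNA annotations cannot be separated on them. Of the 14, 4 were higher and 0 lower at 6 h, and 8 were higher and 1 lower at 18 h. Over all 29345 probe sets tested in the same fit, 13.2% were called at 6 h (5.5% higher and 7.73% lower) and 47.3% at 18 h (24.3% higher and 23% lower). The median difference of the 14 was 0.19 at 6 h and 0.33 at 18 h, beside medians over all probe sets of 0.017 and -0.0095. Without the rescued vehicle array 5 were higher at 18 h. At 6 h 1 was higher without the knockout vehicle, the rescued vehicle or the rescued 6 h array.

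The probe set with the largest rise among the 14 was 225220_at, listed for SNHG8 and SNORA24, an H/ACA snoRNA of the kind that guides pseudouridylation. It read 9.46, 10.17 and 10.87 in knockout cells with vehicle, at 6 h and at 18 h, and 9.52, 10.48 and 10.81 in rescued cells. Every treated array lay above both vehicle arrays, and both 18 h arrays above both 6 h arrays. The share of all probe sets that separate in this way was not counted, while 47.3% were called at 18 h. The difference from vehicle was 0.84 (SE 0.10, adjusted p = 0.0086) at 6 h and 1.35 (SE 0.10, adjusted p = 0.00056) at 18 h, a 2.55-fold difference.

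The 4 shared probe sets of GAS5 list the same 8 C/D-box snoRNAs, which guide ribose methylation, and differed in size of response. On 224841_x_at the levels were 12.10, 12.57 and 12.97 in knockout cells and 11.83, 12.36 and 12.82 in rescued cells, and on 224741_x_at they were 12.33, 12.78 and 13.14 in knockout cells and 12.01, 12.56 and 12.95 in rescued cells. Both rose at 6 h, by 0.50 each (adjusted p = 0.012 and 0.013), and at 18 h, by 0.93 and 0.87 (SE 0.07 each, adjusted p = 0.00052 and 0.00064). The 6 h calls of 224841_x_at and 224741_x_at were lost without the knockout vehicle, the rescued vehicle or the rescued 6 h array (adjusted p = 0.053 to 0.110). The single-symbol GAS5 probe set had 0.51 at 18 h. On 227517_s_at the levels were 11.05, 11.32 and 11.23 in knockout cells and 10.78, 11.12 and 11.24 in rescued cells. It rose by 0.32 (SE 0.09, adjusted p = 0.032) at 18 h, with 0.31 (adjusted p = 0.082) at 6 h. The 18 h call on 227517_s_at was lost without the knockout vehicle, the rescued vehicle or the rescued 18 h array (adjusted p = 0.061 to 0.234). On 228238_at, at 9.60, 9.88 and 9.75 in knockout cells and 9.52, 9.72 and 9.74 in rescued cells, neither time was called (0.24 and 0.18, adjusted p = 0.090 and 0.086). GAS5 thus had 5 probe sets whose 18 h differences ran from 0.18 to 0.93, all above 0.

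SNHG7 is listed with the H/ACA snoRNAs SNORA17A and SNORA17B on a pair of probe sets that disagreed. On 229050_s_at the levels were 10.50, 11.15 and 11.28 in knockout cells and 10.27, 10.99 and 10.78 in rescued cells. It rose by 0.68 (SE 0.10, adjusted p = 0.015) at 6 h and 0.64 (SE 0.10, adjusted p = 0.0044) at 18 h, with the knockout line higher at 18 h than at 6 h and the rescued line lower. The 6 h call of 229050_s_at was lost without the knockout vehicle, the rescued vehicle or the rescued 6 h array (adjusted p = 0.072, 0.050 and 0.053). The dimmer 1552729_at, at 6.99, 6.84 and 6.76 in knockout cells and 6.98, 6.90 and 6.89 in rescued cells, differed from vehicle by -0.11 and -0.16 (adjusted p = 0.36 and 0.12).

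The probe sets listed for SNHG1, SNHG6 and SNHG5 rose by 18 h. SNHG1, host to 8 C/D-box snoRNAs, is listed on 224610_at, which read 11.05, 11.39 and 11.36 in knockout cells and 11.23, 11.58 and 11.80 in rescued cells. Its difference was 0.34 (SE 0.09, adjusted p = 0.063) at 6 h and 0.44 (SE 0.09, adjusted p = 0.011) at 18 h, and the 18 h call on 224610_at was lost without the rescued vehicle array (adjusted p = 0.082). All treated arrays lay above both vehicle arrays on 224610_at, a separation whose share over all probe sets was not counted.

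SNHG6 is listed with SNORD87 on 225547_at, at 12.66, 12.79 and 13.08 in knockout cells and 12.56, 12.72 and 12.97 in rescued cells. It rose by 0.42 (SE 0.06, adjusted p = 0.0040) at 18 h, with 0.15 (adjusted p = 0.20) at 6 h. SNHG5, with SNORD50A and SNORD50B, is listed on 225155_at, at 12.38, 12.43 and 12.71 in knockout cells and 12.23, 12.39 and 12.59 in rescued cells. It rose by 0.35 (SE 0.07, adjusted p = 0.0093) at 18 h, with 0.11 (adjusted p = 0.35) at 6 h. For 225155_at the 18 h call was lost without the knockout vehicle array (adjusted p = 0.056) or the rescued vehicle array (adjusted p = 0.094). In both probe sets both 18 h arrays lay above the other 4, and how often all probe sets do so was not counted.

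SNHG12, with the longest pyrimidine run of the 7 starts printed, had no call on any of 3 probe sets, each listed with SNORA16A, SNORA44 and SNORA61. On 223773_s_at the levels were 10.34, 10.44 and 10.29 in knockout cells with vehicle, at 6 h and at 18 h, and 10.37, 10.44 and 10.60 in rescued cells. On 223774_at they were 8.76, 8.88 and 8.53 in knockout cells and 8.87, 8.98 and 9.03 in rescued cells. On 228990_at they were 9.08, 9.17 and 8.98 in knockout cells and 8.77, 8.90 and 8.96 in rescued cells. The 18 h differences of the means were 0.091, -0.030 and 0.044 (SE 0.10, 0.11 and 0.09, adjusted p = 0.49, 0.85 and 0.73). All 3 stood below vehicle at 18 h in knockout cells and above it in rescued cells.

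The probe set of SNHG15, host to the H/ACA snoRNA SNORA9, went the other way. This set, 225699_at, read 9.34, 9.12 and 8.28 in knockout cells with vehicle, at 6 h and at 18 h, and 9.22, 9.08 and 8.38 in rescued cells. It fell by 0.95 (SE 0.08, adjusted p = 0.00067) on the log2 scale at 18 h, and the 6 h difference was -0.18 (SE 0.08, adjusted p = 0.19). Both 18 h arrays were lower than the other 4, a separation whose share over all probe sets was not counted.

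Between 6 h and 18 h, 5 shared probe sets were called higher and 1 lower, against 15.6% and 13.7% of all probe sets, 29.2% in all. Those called higher were 225220_at (SNHG8) at 0.51, 224841_x_at and 224741_x_at (GAS5) at 0.43 and 0.37, 225547_at (SNHG6) at 0.27 and 225155_at (SNHG5) at 0.24, and 225699_at (SNHG15) was lower at -0.77. The adjusted p of these 6 ran from 0.0041 for 225699_at to 0.048 for 225155_at. The count of higher calls depended on the arrays. It was 0 without the knockout 6 h array, 1 without the knockout 18 h array, 2 without either rescued vemurafenib array and 3 without either vehicle array, while 225699_at kept its call in each case and 2 were called lower without the rescued 18 h array.

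**Figure D2:**
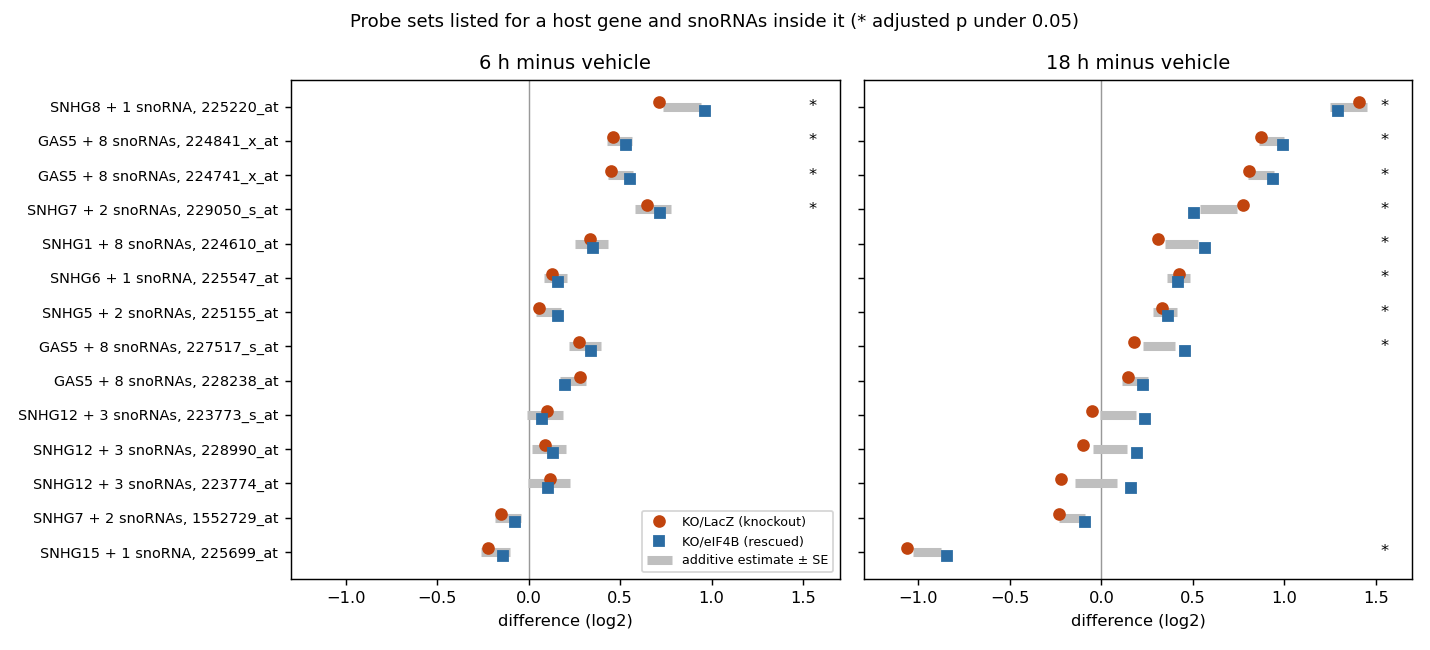
Difference from vehicle (log2) of the 14 shared probe sets at 6 h and at 18 h; circles are the knockout line, squares the rescued line, grey bars the additive estimate ± 1 SE, and asterisks mark an adjusted p under 0.05. SNHG8's probe set lies farthest to the right at 18 h (1.35) and SNHG15's farthest to the left (-0.95), with the 3 SNHG12 probe sets on either side of 0.

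No member was called between the knockout and the rescued line. GAS5 was higher in knockout cells than in rescued cells by 0.19 with vehicle, 0.21 at 6 h and 0.34 at 18 h, a mean of 0.25 (SE 0.06, adjusted p = 0.092, unadjusted p = 0.0062). ZFAS1 differed by 0.022 (SE 0.05, adjusted p = 0.81). With limma 0 of 2 members and 0 of 14 shared probe sets passed, while 2.5% of all genes (1.44% higher and 1.06% lower) and 1.35% of all probe sets (0.9% higher and 0.446% lower) were called. At an unadjusted p under 0.05, 1 of the 2 members and 6 of the 14 shared probe sets passed, 4 of these higher and 2 lower in knockout cells. The shares of all genes and all probe sets passing this looser threshold were not counted. In the limma fit 223774_at had an unadjusted p of 0.048 and an adjusted p of 0.24. Passing the looser threshold was therefore common among all probe sets. The percentages above are for the adjusted threshold, so whether these unadjusted counts differ from those of all probe sets was not tested.

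Those 6 were spread over 4 hosts. The higher ones were 229050_s_at (SNHG7) at 0.29 (SE 0.08, adjusted p = 0.13), 224741_x_at and 224841_x_at (GAS5) at 0.24 and 0.21 (SE 0.06 each, adjusted p = 0.11 and 0.13) and 228990_at (SNHG12) at 0.20 (SE 0.08, adjusted p = 0.22). The lower ones were 224610_at (SNHG1) at -0.27 (SE 0.07, adjusted p = 0.13) and 223774_at (SNHG12) at -0.24 (SE 0.09, adjusted p = 0.24). The 2 SNHG12 probe sets thus pointed in opposite directions. Without either 18 h array 223774_at was at -0.11 and 229050_s_at at 0.19. The SNHG1 probe set was lower in knockout cells by 0.18 with vehicle, 0.19 at 6 h and 0.44 at 18 h. The GAS5 single-symbol probe set and the shared 224741_x_at and 224841_x_at were higher in knockout cells in all 3 pairs. On the shared GAS5 probe set 227517_s_at the knockout line differed by 0.27 with vehicle, 0.20 at 6 h and -0.010 at 18 h. On 228238_at, also shared, it differed by 0.083, 0.16 and 0.0026. How often all probe sets keep their sign in the 3 pairs was not counted.

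**Figure D3:**
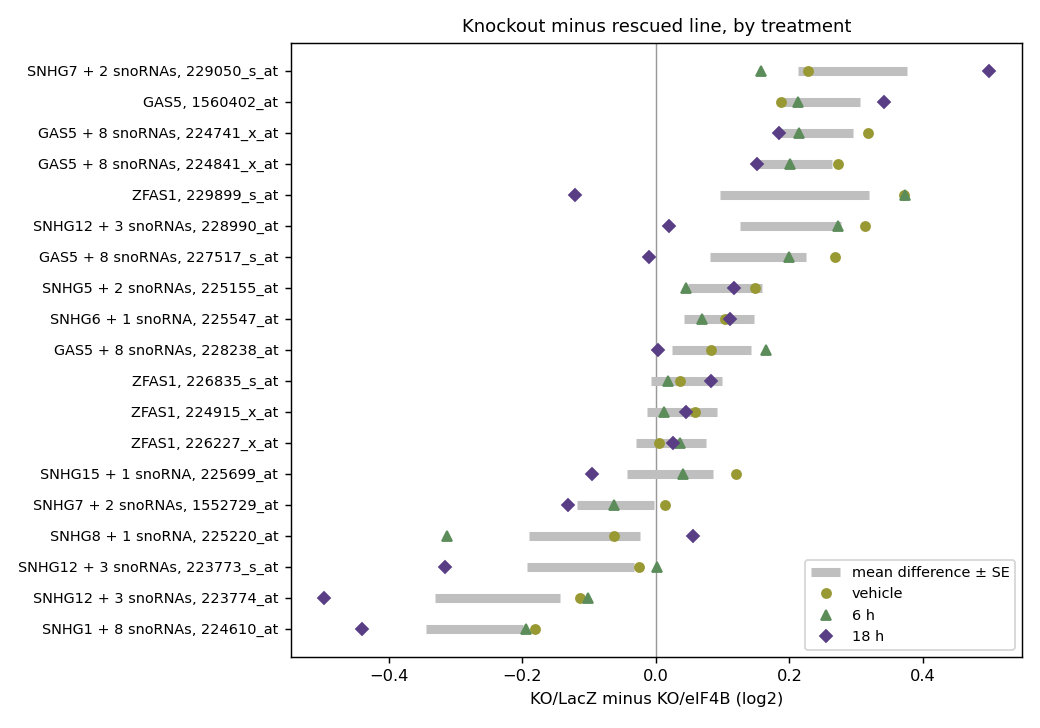
Knockout minus rescued line (log2) for all 19 probe sets of the members with vehicle (circles), at 6 h (triangles) and at 18 h (diamonds); grey bars are the mean difference ± 1 SE. GAS5 lies above 0 at each treatment on 1560402_at (0.19, 0.21 and 0.34) and the SNHG1 probe set below 0 (-0.18, -0.19 and -0.44), and no probe set passed the threshold.

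The lines' responses to the drug were compared with a term shared by both times, on 1 residual degree of freedom. The knockout line's response minus the rescued line's was 0.089 (SE 0.15) for GAS5 and 0.026 (SE 0.14) for ZFAS1, with adjusted p of 1.0 in both. No gene of 13506 was called with limma (0%), and 302 passed an unadjusted p under 0.05. For the shared probe sets the estimates ran from -0.19 on 223774_at to 0.10 on 229050_s_at, with 0 calls over all probe sets (0%) and 668 at an unadjusted p under 0.05.

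Related groups of genes were read from their single-symbol probe sets for comparison at 18 h. Of 21 other non-coding snoRNA hosts, 6 were tested. Of these 5 rose and 1 fell, beside 28.1% of all genes called higher and 23.3% lower. The median difference was 0.61, against 0.0087 over all genes. SNHG32 rose by 1.07 (SE 0.07, adjusted p = 0.00052), EPB41L4A-AS1 by 1.04 (SE 0.07, adjusted p = 0.00047) and SNHG19 by 0.85 (SE 0.07, adjusted p = 0.00068). DANCR and SNHG4 rose by 0.37 and 0.34 (adjusted p = 0.011 and 0.0066), and SNHG17 fell by 0.65 (SE 0.07, adjusted p = 0.0016) on the log2 scale. At 6 h the same list had 5 higher and 0 lower, beside 7.34% and 8.82% of all genes. Without the knockout vehicle array 3 of the 6 hosts were called higher at 18 h.

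Coding hosts and ribosomal proteins were set beside all genes, of which 28.1% were called higher and 23.3% lower at 18 h. Of 45 protein-coding snoRNA hosts 22 were tested, 2 rose, 5 fell and the median was 0.053. RPL3 (0.36, adjusted p = 0.0065) and EEF2 (0.28, adjusted p = 0.016), mRNAs with TOP leaders for a large-subunit protein and the elongation factor, rose, while NCL, encoding nucleolin, fell by 0.49 (adjusted p = 0.0033) and EIF4G2, an initiation factor relative, by 0.33 (adjusted p = 0.0097). The other 3 that fell were RABGGTB (-0.31), TNPO2 (-0.27) and CWF19L1 (-0.26), with adjusted p of at most 0.025. EIF4G2 was at -0.13 and not called when its probe sets were averaged. Without the knockout vehicle array 0 rose and 1 fell, without the knockout 18 h array 1 and 3, and without the rescued vehicle array 1 and 2. Of 79 ribosomal protein genes 52 were tested, and 2 rose at 18 h, RPL3 and RPS9 (0.22, adjusted p = 0.031), with a median of 0.056 and 0 lower. Without any 1 array at most 1 of them was called. Of the 52 ribosomal protein genes tested, 48 lay above 0 at 18 h. Most were very bright, up to 14.20 log2 units for RPL41, where a rise can be compressed. Their small differences therefore do not show that these mRNAs did not respond.

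Genes for proteins that bind or assemble snoRNAs were called mostly in the lower direction. Of 18 snoRNP and assembly genes 16 were tested, 9 fell, 1 rose and the median was -0.42, beside 23.3% of all genes called lower and 28.1% higher. NAF1, an H/ACA assembly factor, fell by 0.93 (SE 0.06, adjusted p = 0.00048) and NUFIP1, a C/D assembly factor, by 0.84 (SE 0.06, adjusted p = 0.00052). PIH1D1, of the R2TP co-chaperone, rose by 0.32 (SE 0.06, adjusted p = 0.0092). NUFIP1 alone of this list was called between the lines, beside 2.5% of all genes. It was higher in knockout cells by 0.41 (SE 0.05, adjusted p = 0.034), a call not rechecked without each array. Without either vehicle array the PIH1D1 call was lost (adjusted p = 0.054 and 0.10).

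Factors of nonsense-mediated decay (NMD), the translation-coupled route that removes some host transcripts, were mixed. Of 24 listed 18 were tested, 10 fell, 4 rose and the median was -0.30, beside 23.3% of all genes called lower and 28.1% higher. MAGOHB (-0.81, adjusted p = 0.0035) and EIF4A3 (-0.68, adjusted p = 0.0014), parts of the exon junction complex, fell furthest, and NBAS (0.71), XRN1 (0.50), PNRC2 (0.42) and GSPT2 (0.21) rose, with adjusted p of at most 0.037. Without any 1 array 3 were called higher, and GSPT2 was not (adjusted p = 0.062 to 0.282). Of 25 reported NMD targets, several of which are NMD factors themselves, 20 were tested, 10 fell, 4 rose and the median was -0.27. UPP1 (-0.96, adjusted p = 0.0022) and SRSF7 (-0.94, adjusted p = 0.00040) fell, and ATF3 (0.66), CARS1 (0.57), ANTXR1 (0.46) and ATF4 (0.45), of which ATF3, CARS1 and ATF4 belong to the amino acid and stress response, rose, with adjusted p of at most 0.029. Without the rescued vehicle array 2 of these were called higher, ATF4 was 0.23 (adjusted p = 0.155) and CARS1 0.36 (adjusted p = 0.058). The calls were also lost without the rescued 18 h array, at 0.34 for ATF4 and 0.43 for CARS1, and for ATF4 without the knockout 18 h array (adjusted p = 0.060). With probe sets averaged CARS1 was 0.31 and ANTXR1 -0.075. No difference between the lists was tested.

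**Figure D4:**
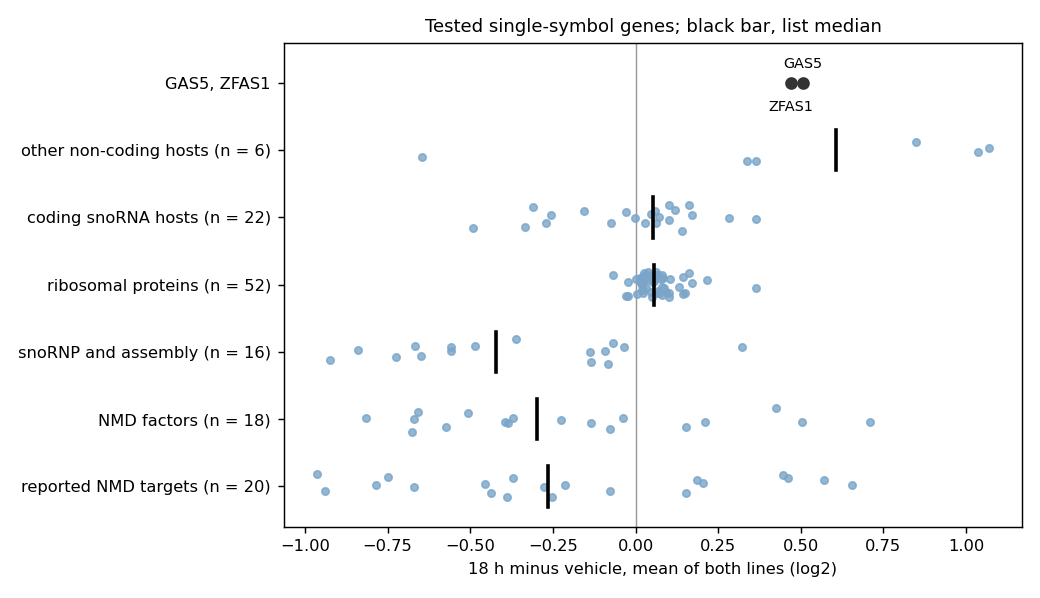
Difference between 18 h of vemurafenib and vehicle (log2, mean of both lines) for each tested single-symbol gene; each point is 1 gene and black bars are list medians. GAS5 (0.51) and ZFAS1 (0.47) lie within the range of the other non-coding hosts. Those are spread from -0.65 (SNHG17) to 1.07 (SNHG32), with a median of 0.61 that falls between DANCR (0.37) and SNHG19 (0.85). The ribosomal proteins cluster near their median of 0.056, and the snoRNP, NMD factor and NMD target medians lie below 0. Most ribosomal protein probe sets were very bright, where a rise can be compressed.

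The profiles most like the mean of GAS5 and ZFAS1 over the 6 arrays were ranked by Pearson r, as a description over arrays that share line and treatment. GAS5 and ZFAS1 themselves correlated at 0.83. The 6 highest were RFNG (0.9975), a Notch-modifying glycosyltransferase, TRIM52 (0.9967), COX5A (0.9965) and UQCRC2 (0.9962) of the respiratory chain, PRUNE1 (0.9965) and GLE1 (0.9963), an mRNA export factor. Their 18 h differences from vehicle were 0.56 for RFNG, 1.06 for TRIM52, 0.71 for PRUNE1, 0.39 for GLE1 and 0.41 for UQCRC2, all called, and 0.16 for COX5A (adjusted p = 0.068).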

How the data were processed

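Total RNA of 6 A375 samples was hybridised to Affymetrix arrays as biotin-labelled cRNA, per the labels' protocols. The deposited intensities are linear RMA values. Per the submitters' processing notes, they were made with RMA and affy, whose versions are not given in the sources used here. This method corrects background, normalizes the arrays to 1 distribution and summarises the probes of a set. It can compress dim and very bright probe sets and hides any shift in total mRNA. The design had assumed log2 values, so log2 was taken first.

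Of 54675 probe sets 62 were controls, 41091 carried 1 gene symbol in the platform annotation, 1801 carried several and 11721 were unnamed here; 41037 of the single-symbol ones matched RefSeq by gene identifier and 54 kept the annotation's symbol. Each of 19775 genes took its probe set with the highest mean, and the 13506 whose mean reached 5 log2 units entered the test. limma 3.58.1 in R 4.3.3 fitted line and treatment additively (lmFit and eBayes, with 2 residual and 3.19 prior degrees of freedom), with Benjamini-Hochberg adjustment and a threshold of 0.05. The difference in response used a term on 1 residual degree of freedom. A fit over 29345 probe sets, giving the shared ones, was chosen after seeing the data. For 18 h against vehicle, data of 13506 genes were simulated with 67 changed by 0.5 log2 units, 67 by 1 and 66 by 2. The fit returned 41.8%, 94% and 100% of these. In the real data 51.4% of genes were called at 18 h, so these shares do not describe recovery in this contrast.

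The members and lists were chosen with earlier results of these data known. Named genes were all 9 members, up to 4 per other list (the 2 highest and 2 lowest called at 18 h), the 6 most alike profiles and the checks. Genes completing a count of 5 or fewer were chosen after their values were seen. Alternatives were the filter, probe set averaging, each probe set as a row, an intensity trend, a robust prior, median centring, a repeat of quantile normalization, leaving out each array, and the response term.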

Additional observations from a re-analysis of the deposited data

Results flagged for a closer look

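At 18 h the knockout and rescued lines moved in opposite directions from vehicle on 4 probe sets. This difference at 18 h alone was not tested. The knockout line's response minus the rescued line's was -0.49 log2 units on 229899_s_at, the dimmest ZFAS1 probe set (-0.23 in knockout cells and 0.26 in rescued cells). On the 3 probe sets listed for SNHG12 and its snoRNAs it was -0.29 on 223773_s_at (knockout cells -0.054, rescued cells 0.24), -0.38 on 223774_at (knockout cells -0.22, rescued cells 0.16) and -0.30 on 228990_at (knockout cells -0.10, rescued cells 0.19). The term shared by both times gave -0.25 (SE 0.23), -0.13 (SE 0.19), -0.19 (SE 0.20) and -0.17 (SE 0.18) for them in that order, each with an adjusted p of 1.0. The other 3 ZFAS1 probe sets had 18 h values above vehicle in both lines.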

How the results depend on the processing

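At 18 h against vehicle GAS5 and ZFAS1 kept their direction and their call under all 15 alternatives run for each. For GAS5 at 6 h the difference stayed at 0.35 without a filter on level (adjusted p = 0.060) and with the response term (adjusted p = 0.064), and neither was called. For ZFAS1 the 18 h difference from 6 h, 0.29, was not called with the response term (adjusted p = 0.052), while its 6 h difference, 0.18, was called with an intensity trend (adjusted p = 0.0049). The ZFAS1 difference in response was -0.059 with probe sets averaged. The member count at 6 h was 0 without the filter, 2 with the trend and 0 with the response term, and at 18 h against 6 h 0 with the response term. Higher shared probe sets numbered 3 at 18 h against 6 h without the filter and with the response term, and 8 at 6 h with the trend. With the trend 3 were higher and 1 lower in knockout cells. The shares of all probe sets called in these settings were not counted, so these numbers have no background beside them. After quantile normalization once more 225699_at differed by -0.0057 between the lines and 229899_s_at by -0.029 at 18 h, and with probe sets averaged ANTXR1 was -0.075 and LARP1B 0.012 at 18 h. All genes called numbered 1398 at 6 h without the filter (2182 in the report's fit), and between the lines 58 without it, 1169 with the trend and 166 with the response term (337). The cause was not tested.

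On leaving out 1 array, which assumes that a lone sample varies like the others, GAS5 ran from 0.30 to 0.39 at 6 h, 0.44 to 0.58 at 18 h, 0.090 to 0.23 between the times and 0.20 to 0.28 between the lines, and ZFAS1 from 0.16 to 0.19, 0.46 to 0.48, 0.28 to 0.30 and 0.015 to 0.031. Members called ranged from 0 to 1 at 6 h, 2 to 2 at 18 h and 0 to 1 between the times. Shared probe sets called higher ranged from 1 to 6 at 6 h, 5 to 8 at 18 h and 0 to 3 between the times, those lower from 1 to 2 between the times, and none passed between the lines. The sign turned at 18 h on 223773_s_at (-0.061 to 0.24), 223774_at (-0.23 to 0.16), 228990_at (-0.093 to 0.18) and 229899_s_at (-0.23 to 0.26), and between the lines on 225699_at (-0.028 to 0.080). All-gene calls ranged from 576 to 2547 at 6 h, 4294 to 6567 at 18 h, 1419 to 4242 between the times and 0 to 46 between the lines. No paired analysis was possible because the labels number no replicates that could serve as a replicate block beyond line and treatment, which are already terms of the additive fit.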

Other observations

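Genes that regulate TOP mRNAs or host transcription were read at 18 h as a further list. All 21 were tested, 7 rose, 9 fell and the median difference was 0.0015, beside 0.0087 over all genes. Of all genes 28.1% were called higher and 23.3% lower. MYC, a transcription factor for ribosome and snoRNA host genes, fell by 3.29 log2 units (adjusted p = 0.00028) and LARP1B, a relative of the TOP-binding LARP1, by 1.18 (adjusted p = 0.00036), though averaging the probe sets of LARP1B gave 0.012. DEPTOR, an mTOR inhibitor subunit, rose by 0.99 (adjusted p = 0.0032) and TSC1, a negative regulator of mTOR, by 0.66 (adjusted p = 0.00097). Without the knockout vehicle array 5 of the list fell. None of the 21 was called between the knockout and rescued lines with limma.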
